A study of Mus musculus with 4 samples.

Results

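Interferon-responsive microglia and macrophages are brain myeloid cells that carry the transcripts of an interferon response. Here they were taken as cells with at least 1 unique molecular identifier (UMI, a tag that counts 1 captured mRNA) of Csf1r, the receptor that marks microglia and macrophages, and of at least 3 of the 5 interferon-stimulated genes Rsad2, Ifit1, Ifit2, Ifit3 and Cmpk2. Cells with a UMI of Cldn5 (endothelium), Cd3e (T cells), Flt3 or Cd209a (dendritic cells) were left out. This gave 2825 cells among 38066 Csf1r-positive cells and 60942 kept cells. They were compared with the other 35241 Csf1r-positive cells of the same libraries and split by detection of Sall1, a transcription factor of resident microglia: 1580 had a Sall1 UMI and 1245 had none. The study profiled the ipsilateral hemisphere of adult mice 3 days after tMCAO, a transient occlusion of the middle cerebral artery that models ischemic stroke, without enrichment of any cell type, on the BD Rhapsody microwell platform. The 2 Flox control libraries came from Htr2b flox/flox littermates and the 2 Ms4a3 cKO libraries from mice that the series text gives as Htr2b ERCre and Ms4a3-Cre, titled a conditional knockout of the serotonin receptor gene Htr2b. Tamoxifen and a washout of 3 days preceded the surgery, and the labels give C57B6 as the genotype of every sample. Ms4a3-Cre acts in granulocyte-monocyte progenitors and their progeny, so that resident microglia are outside its main lineage. The number, sex and exact age of the mice behind each library are not stated, so the p-values below cover only library-to-library spread, which may be technical. Those of the fits split by Sall1 also draw on spread between sums of the same library.

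Cells that sense viral or misplaced self nucleic acids make type I interferon, which binds the receptor pair Ifnar1 and Ifnar2 on the same and on neighbouring cells. The kinases Jak1 and Tyk2 then activate transcription factors, among them Stat2, which joins Irf9, and these bind the interferon-stimulated response element (ISRE) in the promoters of antiviral genes. Interferon gamma uses other receptors and acts mainly on the gamma-activated site (GAS). In the brain, a small class of microglia in this state is known from ageing, viral infection, demyelination and stroke.

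The core letters of the ISRE (GAAANNGAAA, N for any base) and of the GAS (TTCNNNGAA) were searched on both strands of the RefSeq promoter windows of GRCm38.p6, from 250 bases before to 50 after each gene's start. The windows of a single chromosome were left out, so its genes enter none of the promoter counts. The ISRE letters stood in 3 of the 5 genes that chose the cells (Ifit1, Ifit3 and Rsad2). They stood in 3.99% of the 27025 genes with a window. The stretches of these 3 genes are shown first, since they are the genes by which the cells were found. Ifit3b, Isg15, Oas3, Ifi213 and Cxcl10 follow, since they were among the genes that separated the same cells most widely or carried the chemokine result. Capitals mark the matches, read 5′ to 3′ on the gene's strand.
Ifit1 (chr19:34640775-34640823, plus strand): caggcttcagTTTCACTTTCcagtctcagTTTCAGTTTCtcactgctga
Ifit3 (chr19:34583363-34583426, plus strand): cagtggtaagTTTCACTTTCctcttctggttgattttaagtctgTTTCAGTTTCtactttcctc
Ifit3b (chr19:34607759-34607822, plus strand): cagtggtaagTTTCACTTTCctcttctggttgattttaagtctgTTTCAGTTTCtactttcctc
Rsad2 (chr12:26456553-26456582, minus strand): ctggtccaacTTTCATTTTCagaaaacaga
Isg15 (chr4:156200865-156200906, minus strand): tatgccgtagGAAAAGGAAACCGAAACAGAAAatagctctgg
Oas3 (chr5:120777715-120777744, minus strand): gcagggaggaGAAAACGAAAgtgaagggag
Ifi213 (chr1:173599326-173599355, minus strand): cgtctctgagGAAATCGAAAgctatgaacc
Cxcl10 (chr5:92349083-92349112, minus strand): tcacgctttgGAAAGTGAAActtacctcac
The Ifit3 and Ifit3b stretches were identical at 64 of 64 positions. Reads of such near copies can be split between genes, so values of Ifit3 and Ifit3b, Ifit1 and Ifit1bl1, Oas1a and Oas1g, and the closely related Ifi genes are uncertain as to which copy they come from. In Isg15, the antiviral ubiquitin-like modifier, 3 matches overlapped in 1 run.

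All 4 libraries held such cells, with unequal depth and composition. Values below are given in the order Flox control 1, Flox control 2, Ms4a3 cKO 1 and Ms4a3 cKO 2 unless libraries are named. Library totals ranged from 77580518 to 105566650 UMIs, and 13515 to 16514 cells per library were kept. Interferon-responsive cells numbered 1433, 515, 375 and 502, and their summed UMIs ranged from 2742240 to 12060267. No member shared its barcode with a member of another library, and 13 kept barcodes in all occurred in more than 1 library. Scrublet called 2.19% to 3.20% of members doublets, against 1.63% to 3.11% of the comparison cells, and these cells stayed in.

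Most of these cells carried microglia markers, at the lowest level in Ms4a3 cKO 1, and markers of other cell types occurred in every library. Between 88.0% and 98.6% of members had at least 2 of 10 microglia markers, whose summed level was 18223, 10167, 6577 and 13262 CPM (a gene's or list's UMIs per 1000000 UMIs of the summed cells). The 10 monocyte-macrophage markers summed to 13922 CPM in Ms4a3 cKO 1 and to 2327 to 4053 in the other libraries. Neutrophil markers (S100a8, S100a9, Retnlg, Csf3r, Cxcr2, Mmp8 and Ly6g) summed to 3926 CPM in Ms4a3 cKO 1 and to 152 to 178 elsewhere, where Ly6g or Retnlg was at 0 in members of 1 library each. In Ms4a3 cKO 1, 185 of 375 members (49.3%) had at least 2 neutrophil markers. Those 185 cells had 3.44 Csf1r UMIs on average, 37.3% of them had a single Csf1r UMI, and their antiviral list stood at 9055 CPM, against 4375 in the remaining 190. In the other libraries 6.97% to 13.4% of members had at least 2 neutrophil markers. The part of neutrophil RNA in the values of Ms4a3 cKO 1 was not tested. For some results below, values are also given without this library, or without the cells that carry at least 2 markers of neutrophils, oligodendrocytes, astrocytes, fibroblasts or endothelium. Cells with such markers made up 23.1%, 46.6%, 60.0% and 35.5% of members. Among the other Csf1r-positive cells they made up 26.2%, 42.7%, 38.1% and 35.1%. Markers of T and NK cells summed to at most 2.65 CPM in members and those of dendritic cells to at most 6.84, which the rule fixes in part, since it leaves out cells with Cd3e, Flt3 or Cd209a. Markers of plasmacytoid dendritic cells summed to 348, 572, 575 and 565 CPM in members and to 248, 485, 532 and 530.1 in the others, with Klk1 and Ly6d at 0 in all members.

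**Figure D1:**
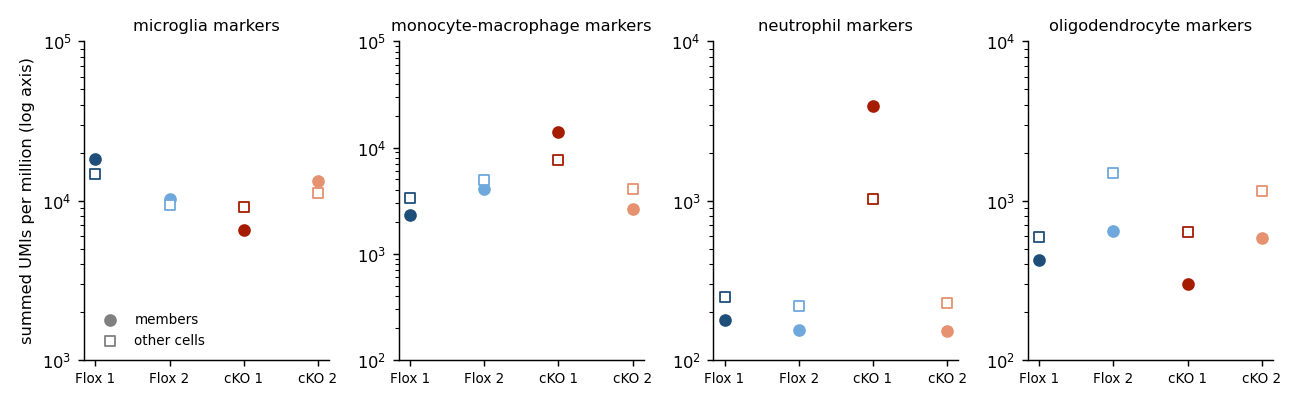
Summed level of microglia, monocyte-macrophage, neutrophil and oligodendrocyte markers in members (filled circles) and other Csf1r-positive cells (open squares) of each library, in CPM on a log axis. Members of Ms4a3 cKO 1 lay lowest in microglia markers and at 3926 in neutrophil markers, where members of the other libraries lay at 152 to 178.

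Interferon-responsive cells were most frequent in Flox control 1. They made up 13.8% of the Csf1r-positive cells there (95% Wilson interval 13.2 to 14.5), 5.08% in Flox control 2 (4.67 to 5.52), 4.42% in Ms4a3 cKO 1 (4.00 to 4.88) and 5.54% in Ms4a3 cKO 2 (5.09 to 6.03). The intervals cover counting error only. Detection of 3 genes needs depth, and the median depth of members was 7493, 8652, 6390 and 8140 UMIs, against 7362.5, 6899, 5335 and 5742 in the comparison cells. After every cell was thinned to 2000 UMIs, which left out 1244, 3544, 3463 and 3546 shallower cells, the shares were 6.22%, 2.38%, 2.48% and 1.35%. Flox control 1 stayed highest, while Ms4a3 cKO 2 moved from the second place to the last. The share in Ms4a3 cKO was 0.76 lower on the log2 scale than in Flox control (log2 ratio -0.76). It did not differ beyond the spread of the libraries (two-sided exact permutation p = 0.667, n = 2 per group, where the smallest p this design allows is 1 in 3). Without Flox control 1 the log2 ratio was -0.04, and without Flox control 2 it was -1.48, so that the size rested on the 1 high control.

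**Figure D2:**
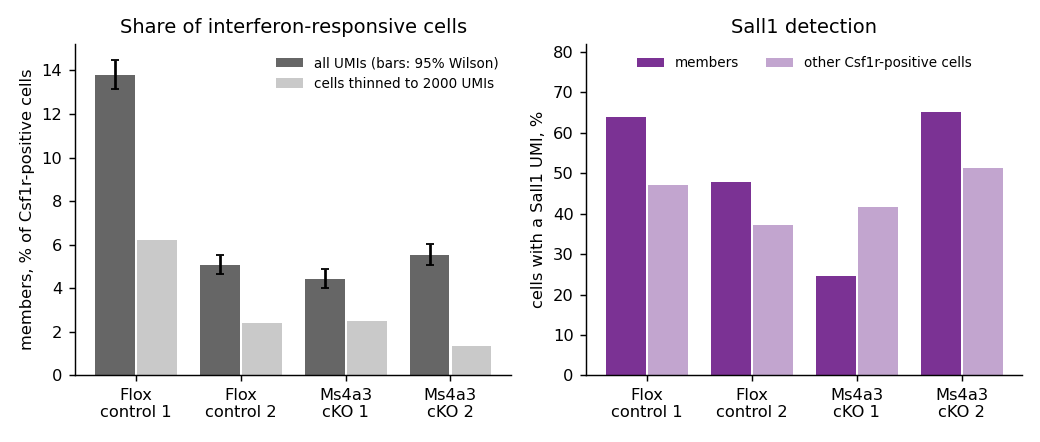
Left, share of members among Csf1r-positive cells per library, from all UMIs with 95% Wilson intervals (dark) and after thinning to 2000 UMIs (light). Right, share of cells with a Sall1 UMI in members and in other Csf1r-positive cells. Flox control 1 stands highest on the left, at 13.8%, and Ms4a3 cKO 1 is the library on the right in which members fall below the other cells.

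The 5 genes that chose the cells are given as a description, with no test. Rsad2, which makes the antiviral nucleotide ddhCTP, stood at 702, 987, 2250 and 408 CPM in members and at 20.4, 13.4, 14.8 and 21.5 in the other cells. Ifit1, which binds foreign RNA ends, stood at 300.1, 382, 900 and 158 against 12.4, 8.06, 7.67 and 8.19. Ifit2, of the same family, stood at 669, 898, 1102 and 415 against 38.7, 21.0, 15.5 and 31.0. Ifit3, which steadies Ifit1 on RNA, was detected in 91.9%, 90.9%, 85.1% and 89.0% of members, and its level was highest in Ms4a3 cKO 1 and lowest in Ms4a3 cKO 2. Cmpk2, a mitochondrial nucleotide kinase beside Rsad2 in the genome, was detected in 46.5%, 51.8%, 72.8% and 45.6% of members, the least often of the 5 genes in each library. By level, 4 of the 5 genes ran from Ms4a3 cKO 1 down through Flox control 2 and Flox control 1 to Ms4a3 cKO 2.

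The summed antiviral level rose with the number of rule genes detected, also across the threshold. In Flox control 1, cells just inside it, with 3 of the 5 genes, held 2725 CPM of 32 other antiviral effectors, and cells just outside it, with 2, held 2025. The same pair of values was 2693 and 1933 in Flox control 2, 3971 and 1837 in Ms4a3 cKO 1, and 2200 and 1706 in Ms4a3 cKO 2. Cells with all 5 genes held 6061, 5844, 8116 and 4353, and cells with none held 977, 1021, 1222 and 1255. The antiviral list includes Ifit1bl1, a near copy of a rule gene, so its sum is not fully apart from the rule. These values are sums over cells, and whether the state is graded in single cells was not tested. The share of cells with Sall1 went from 59.3%, 53.5%, 43.0% and 63.4% at 2 genes to 63.2%, 52.7%, 27.0% and 63.6% at 3. Cells with 3 genes made up 45.6%, 39.8%, 26.7% and 62.9% of members, and cells with 5 made up 25.3%, 28.5%, 45.9% and 12.5%. By UMIs of the antiviral list per cell, 8.54%, 6.01%, 2.31% and 14.9% of the other Csf1r-positive cells exceeded the median member of their library. In a check added after the data were seen, the UMIs of each cell were split at random into 2 equal parts and members were chosen on 1 part. The 5 genes summed to 3717, 4372, 6717 and 2537 CPM in the other part of the same cells, against 158, 75.9, 57.4 and 121 in the rest. Of the cells chosen on 1 part, 66.4%, 73.5%, 84.0% and 49.6% also had 3 of the 5 genes in the other part. Both parts hold the same 5 genes of the same cells, so the check describes only how repeatable the choice was. It is no independent evidence of an interferon response.

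**Figure D3:**
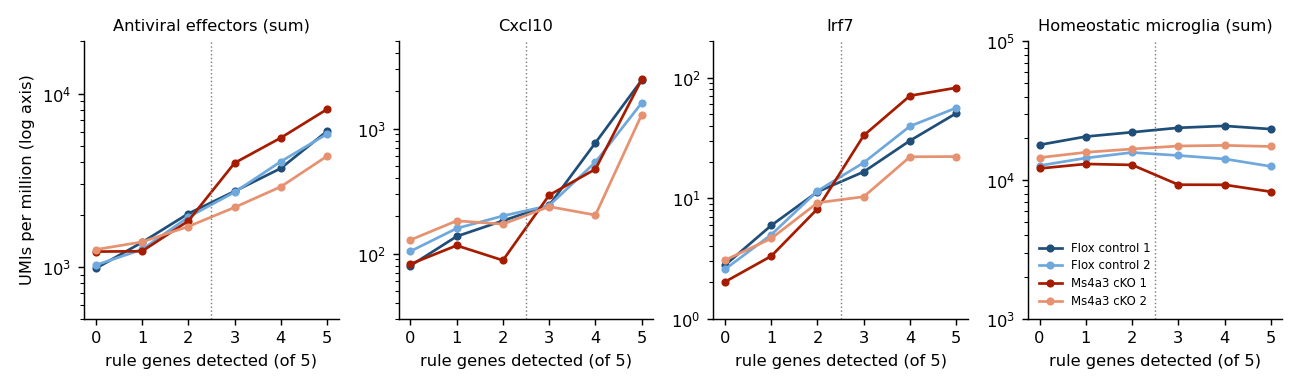
Summed antiviral effectors, Cxcl10, Irf7 and summed homeostatic microglia genes in Csf1r-positive cells by the number of the 5 rule genes detected, in CPM on log axes, 1 line per library; the dotted line marks the threshold for members. The antiviral sum rises from 977 to 1255 at 0 genes to 4353 to 8116 at 5 genes.

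Beyond the genes that chose the cells, interferon-responsive cells were higher in antiviral effectors, interferon-induced GTPases and the Isg15 system, and lower in several myelin genes. edgeR's quasi-likelihood test on summed counts, with the library as a block, called 246 of 14620 genes higher (1.68%) and 37 lower (0.253%) at a Benjamini-Hochberg adjusted p under 0.05. The cells were chosen for co-detected interferon-stimulated genes, so these calls describe which other genes were high in the same cells and are no independent evidence of an interferon response. The count depended on which libraries were in the fit. Without Flox control 2 no gene passed (1050 at an unadjusted p under 0.05), without Flox control 1 there were 106, without Ms4a3 cKO 1 there were 562 and without Ms4a3 cKO 2 there were 260, and DESeq2 called 534. Every adjusted p below is from the edgeR fit on all 4 libraries, and each called gene lost its call without Flox control 2.

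**Figure D4:**
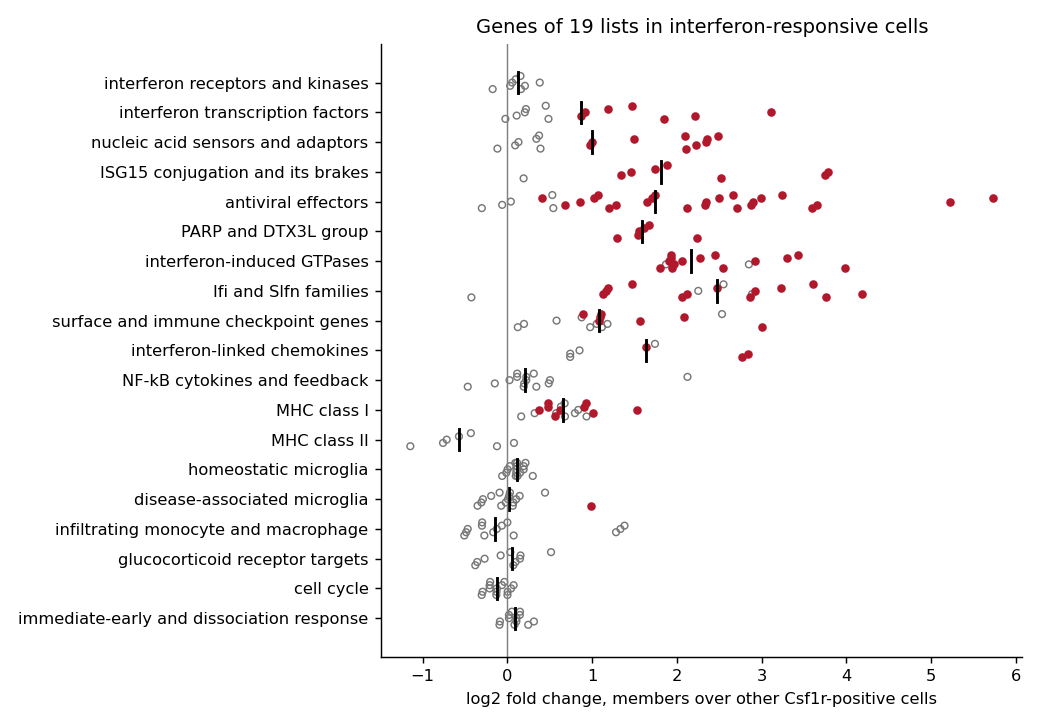
Log2 fold change of members over other Csf1r-positive cells for each measured gene of 19 lists (points), with red for an adjusted p under 0.05 and a black bar at the list median; the 5 rule genes are left out. The lists of interferon-stimulated genes lie to the right, up to 5.74, and the homeostatic, cell cycle and immediate-early lists centre on 0.

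Interferon genes themselves were rarely seen. Ifnb1, the main type I interferon of myeloid cells, had 76 UMIs in 35 members of Flox control 1 and 2 UMIs in the members of each other library. In the other Csf1r-positive cells it had 145, 37, 13 and 46 UMIs, so most Ifnb1 UMIs of every library lay outside the members. Members held 34.4%, 5.13%, 13.3% and 4.17% of the Ifnb1 UMIs of Csf1r-positive cells. They made up 13.8%, 5.08%, 4.42% and 5.54% of those cells. Its log2 fold change of 0.99 (SE 0.48) did not pass (adjusted p = 0.561), and without Flox control 1 it was 0.04. The 13 interferon alpha genes searched gave 7 UMIs of Ifna2 and 1 of Ifnab in members of Flox control 1 and 0 in members of the other libraries. Ifng had 0 UMIs in all members. In Flox control 1 it had 30 UMIs, of which 25 lay outside the Csf1r-positive set. Cd3e-positive cells, with or without Csf1r, also held 25.

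Of the interferon receptors and their kinases, none of the 8 measured passed, with a median log2 fold change of 0.13 against -0.02 over all genes tested. Ifnar2, a chain of the type I receptor, stood at 239, 275, 244 and 287 CPM in members and at 224, 276, 231 and 261 in the others (log2 0.15, SE 0.07). Ifnar1, the other chain, gave 0.10 (SE 0.10) and changed sign without Ms4a3 cKO 1. Ifngr1 and Ifngr2, the interferon gamma receptor chains, gave -0.17 and 0.16 (SE 0.08 and 0.07).

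Of 13 interferon transcription factors, 7 were higher and 0 lower (median log2 0.87). Stat2, which carries the type I signal to the nucleus, stood at 252, 232, 289.9 and 168 CPM in members and at 63.6, 40.5, 45.0 and 64.9 in the others. The groups did not overlap, and members were higher by 2.22 on the log2 scale (SE 0.22, adjusted p = 0.0068). Irf7, which amplifies interferon production, and Irf9, the DNA-binding part of the complex, were picked after their values were seen: Irf7 rose by 3.12 (SE 0.43, adjusted p = 0.0132) and Irf9 by 0.87 (SE 0.12, adjusted p = 0.0132). Irf2 and Irf8 did not pass (log2 0.48 and 0.22, adjusted p = 0.0638 and 0.223).

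Of 15 nucleic acid sensors and adaptors, 9 were higher and 0 lower (median 0.99). Ifih1, the cytosolic sensor of long double-stranded RNA also called MDA5, stood at 257, 293, 501 and 208 CPM in members against 73.8, 64.7, 71.2 and 85.6. The groups did not overlap (log2 2.09, SE 0.24, adjusted p = 0.0078). Ddx60, a helicase that helps such sensors, rose by 2.23 (SE 0.22, adjusted p = 0.0068), and Ifi204, a DNA sensor of the Ifi200 family, by 2.34 (SE 0.25, adjusted p = 0.0068). The endosomal RNA sensor Tlr7 did not pass (log2 0.34, adjusted p = 0.181).

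The list of Isg15 conjugation and its brakes, which also holds the feedback gene Socs3, had 7 of 8 measured genes higher and 0 lower (median 1.82). Isg15 stood at 35.0, 55.9, 90.8 and 14.6 CPM in members and at 4.40, 3.37, 3.03 and 2.33 in the others. Every member value lay above every other value, and the log2 fold change was 3.75 (SE 0.38, adjusted p = 0.0068). It was 3.31 without Ms4a3 cKO 1. Usp18, which removes Isg15 and blocks the type I receptor, rose by 3.78 (SE 0.45, adjusted p = 0.0081), from 3.52 to 14.8 in the others to 43.0 to 138 in members. Herc6, the mouse ligase that attaches Isg15, rose by 2.52 (SE 0.25, adjusted p = 0.0068).

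Among antiviral effectors, 24 of 29 were higher and 0 lower (median 1.75). Oasl2, of the oligoadenylate synthetase family, stood at 563, 423, 580 and 290.0 CPM in members and at 117, 46.5, 38.5 and 73.9 in the others. The groups were far apart, 2.90 on the log2 scale (SE 0.33, adjusted p = 0.0078). Ifit1bl1 and Ifit3b, near copies of 2 of the rule genes, had the widest changes of all named genes, at 5.74 and 5.23 (SE 0.67 and 0.43). Which copy these reads came from is uncertain, as said above. Without Ms4a3 cKO 1, Ifit1bl1 gave 4.82. Oasl1, Oas3 and the exonuclease Isg20 rose by 3.66, 3.60 and 3.24, and Isg20 gave 2.60 without that library. Ifitm3, which blocks viral entry, stood at 547, 702, 1303 and 368 against 197, 197, 234 and 222 (log2 1.71, SE 0.26, adjusted p = 0.020). Sp100, a nuclear body protein, and Samhd1, which depletes nucleotides, rose by 1.75 and 1.28.

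All 6 genes of the PARP and DTX3L group were higher (median 1.58). These ADP-ribosyltransferases and their ubiquitin ligase partner act in antiviral defence. Parp9 stood at 319, 276, 274 and 266 CPM in members against 111, 81.4, 80.0 and 125 (log2 1.62, SE 0.13, adjusted p = 0.0068). Its partner Dtx3l rose by 1.67 (SE 0.22), Parp14 by 2.24 and Parp12 by 1.55.

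Of 16 interferon-induced GTPases, which attack the vacuoles of intracellular microbes, 14 were higher and 0 lower (median 2.17). Irgm1 stood at 349, 297, 343 and 183 CPM in members and at 102, 49.6, 45.2 and 63.9 in the others (log2 2.27, SE 0.25, adjusted p = 0.0068). Iigp1 stood at 201, 118, 78.0 and 47.9 against 31.2, 3.05, 3.03 and 5.02, so its background in Flox control 1 was several times that of the other libraries (log2 3.98, SE 0.45, adjusted p = 0.0078). Gbp2 stood at 161, 117, 505 and 48.7 against 44.7, 13.7, 17.1 and 18.8 and did not pass (log2 2.85, SE 0.57, adjusted p = 0.0593), with 1 high and 1 low knockout library, and gave 2.14 without Ms4a3 cKO 1. Ifi47 and Gbp7 rose by 2.93 and 1.80, and Ifi47 gave 2.34 without Ms4a3 cKO 1. The ISRE letters stood in 9 of the 10 GTPase genes with a promoter window, and the GAS letters in 6 of 10, against 9.55% of all genes.

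Of 17 measured Ifi and Slfn genes, 13 were higher and 0 lower (median 2.47). Slfn5, of the Schlafen family, stood at 824, 754, 1312 and 478 CPM against 215, 143, 105 and 152 (log2 2.47, SE 0.32, adjusted p = 0.0109). The Ifi200 genes Ifi213, Ifi211, Ifi209 and Ifi207 rose by 3.76, 3.23, 2.87 and 1.19, and Ifi205 by 4.18 (SE 0.67). Ifi44 rose by 3.60 (SE 0.28, adjusted p = 0.0068). Mndal did not pass (log2 2.25, SE 0.54, adjusted p = 0.113), with member values from 50.9 to 660, and gave 1.58 without Ms4a3 cKO 1. Without that library Ifi205 gave 3.23.

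Surface genes were mixed, with 7 of 16 higher and 0 lower (median 1.08). Ly6e, a surface protein that limits coronavirus entry, stood at 330, 225, 259 and 275 CPM against 185, 108, 143 and 192 (log2 0.89, SE 0.10, adjusted p = 0.0068). Cd274, the checkpoint ligand PD-L1, was picked after its values were seen and rose by 1.57 (SE 0.28, adjusted p = 0.0371), or by 1.17 without Ms4a3 cKO 1. Ms4a4c and Ms4a6b, of the gene family of the Cre driver, did not pass (log2 2.53 and 0.58, adjusted p = 0.051 for both).

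Of 7 interferon-linked chemokines, 3 were higher and 0 lower (median 1.63). Cxcl10, which draws T cells through Cxcr3, stood at 948, 773, 1372 and 376 CPM in members and at 112, 120, 91.9 and 148 in the others. The groups did not overlap, and members were higher by 2.84 on the log2 scale (SE 0.38, adjusted p = 0.0119). The mean came from few cells: 36.4%, 34.0%, 39.7% and 26.1% of members had a Cxcl10 UMI, and the top 10% of members held 83.1%, 83.3%, 69.1% and 82.7% of its UMIs. Ccl12, a ligand of Ccr2, stood at 1154, 443, 432 and 330 against 264, 121, 152 and 206 (log2 1.63, SE 0.21, adjusted p = 0.0102). Cxcl9, a target of interferon gamma that was picked after its values were seen, stood at 122 CPM in members of Flox control 1, 6.63 in Flox control 2, 5.84 in Ms4a3 cKO 1 and 0 in Ms4a3 cKO 2, where the floor of 3 UMIs is 0.662. The other cells stood at 27.7, 0.543, 0.227 and 0.121, so that members were higher in 3 of 4 libraries, while in Ms4a3 cKO 2 all 7 UMIs lay in the other cells. The fitted change was 2.77 (SE 0.45, adjusted p = 0.0252), and 1.89 without cells of other markers. Ccl2 and Ccl7 did not pass (log2 0.85 and 0.74, adjusted p = 0.0874 and 0.355).

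The NF-kB cytokines and their feedback genes, a neighbouring inflammatory program, had 0 of 14 genes past the threshold as higher and 0 as lower (median 0.21). Of the 14, 12 lay above 0, against 6714 of all 14620 genes tested. Ccl4, a chemokine of activated microglia, came nearest to passing among those named. It stood at 2102, 2149, 1546 and 2058 CPM in members against 1252, 1424, 1544 and 1617 (log2 0.50, SE 0.10, adjusted p = 0.0655). In Ms4a3 cKO 1 the values were alike. Ccl3 gave 0.31 (SE 0.09, adjusted p = 0.198).

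Antigen presentation split by class. Of 18 genes of the MHC class I pathway, 9 were higher and 0 lower (median 0.65). B2m, the light chain of class I molecules, stood at 10140, 5314, 4162 and 5720 CPM in members against 7844, 3866, 3078 and 4475. It was higher in members of all 4 libraries, by 0.48 on the log2 scale (SE 0.07, adjusted p = 0.0189), although the libraries differed more from each other than members from the rest. H2-K1, a class I heavy chain, also rose by 0.48 (SE 0.07, adjusted p = 0.0197), whereas H2-D1 and the peptide loader Tapbp did not pass (log2 0.32 and 0.80, adjusted p = 0.101 and 0.0518). No MHC class II gene of 7 passed (median -0.57). H2-Aa stood at 472, 327, 66.4 and 6.40 in members and at 567, 568, 72.3 and 52.6 in the others. The members, but not the comparison cells, lack the dendritic cell genes Flt3 and Cd209a by rule. When the comparison cells were held to the same absence, the log2 fold change of H2-Aa went from -0.76 to 0.13, that of H2-Ab1 from -0.57 to 0.25, that of Cd74 from -0.43 to 0.17 and that of H2-Eb1 from -0.72 to 0.26.

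For the lists of microglial and macrophage states, the number of calls was near the background of 1.68% higher and 0.253% lower, which in lists of this size is less than 1 gene. None of 16 homeostatic microglia genes, 14 infiltrating monocyte and macrophage genes, 10 glucocorticoid receptor targets, 14 cell cycle genes and 12 immediate-early genes passed in either direction, with medians of 0.11, -0.15, 0.05, -0.13 and 0.09. Of 16 disease-associated microglia genes, only Axl passed, a receptor for dying cells that is named here because it was the single call (log2 0.99, SE 0.10, adjusted p = 0.0068). It stood at 124, 93.3, 38.7 and 61.3 CPM in members against 73.3, 42.2, 19.2 and 35.8, higher in members of all 4 libraries. Htr2b, the gene that the study deleted, stood at 42.9, 95.01, 65.3 and 80.9 in members against 62.1, 104, 61.2 and 67.2 (log2 -0.01, SE 0.14). Its counts do not check the knockout labels, since neither the deleted part of the gene nor the share of recombined cells is known here.

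The genes that were lower in members included those of myelinating oligodendrocytes. Of those named by size, Mbp, Mag, Cldn11, Aplp1, Septin4 and Tspan2 are of this kind. Mbp, a structural protein of compact myelin, stood at 80.0, 60.8, 46.0 and 76.3 CPM in members against 116, 120.2, 80.2 and 102 (log2 -0.60, SE 0.10, adjusted p = 0.0273). The whole set of 6 oligodendrocyte markers summed to 425, 640, 299 and 585 in members against 591, 1488, 639 and 1154. When cells with at least 2 markers of another cell type were left out, the change of Mbp was -0.21, and Septin4 and Mag turned from -0.94 and -0.73 to 0.04 and 0.06. Lsamp, a neural adhesion protein, gave the largest change (log2 -1.20, SE 0.15) and kept -1.30 in that setting. Atp6v0d2, a proton pump subunit of macrophages, fell by 0.93 on the log2 scale (SE 0.11, adjusted p = 0.0081), with member values of 75.04, 14.8, 3.28 and 7.28 against 150, 32.1, 7.76 and 11.0, and kept -1.11. In the same setting Cldn11 went from -0.81 to -0.07, Aplp1 from -0.86 to -0.20, Pex5l from -0.79 to -0.12 and Scd2 from -0.45 to -0.29, and Tspan2 gave -0.60. Ptprd, Cbfa2t3 and Slc25a13 gave -0.76, -0.74 and -0.51 there, against -0.84, -0.56 and -0.54 with all cells.

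Over all genes called higher, 193 had a promoter window and 64 of them (33.2%) held the ISRE letters, against 452 of 11252 genes tested (4.02%). Of the genes called lower, 1 of 26 (3.85%) held them. Among lists, they stood in 14 of 25 antiviral effectors, 9 of 17 Ifi and Slfn genes, 0 of 10 homeostatic microglia genes and 0 of 12 NF-kB genes. The GAS letters stood in 29 of 193 genes called higher and in 8.17% of the genes tested. Of the genes called higher, 37 of 77 in the lists (48.1%) and 27 of 116 outside them (23.3%) held the ISRE letters. The calls come from cells chosen by interferon-stimulated genes, so these shares are no independent evidence of an interferon response.

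Genes of the interferon lists were higher both in members with Sall1 and in members without it. Both sets of members were chosen by the same rule genes, so neither is an independent check of the other. Members with Sall1 against other cells with Sall1 gave 215 genes higher (1.52%) and 14 lower (0.0992%) of 14120. Members without Sall1 gave 301 higher (2.13%) and 14 lower (0.0992%), both from a shared edgeR fit with the library as a block. That fit took the sums with and without Sall1 of each library as separate observations. Its p-values can therefore be too small and are not comparable with those of the fit without the split. The genes of the rule were not taken out of these counts of calls. Without Flox control 2 the 229 and 315 calls in both directions were 57 and 143, and without Flox control 1 the first was 135. Of 29 antiviral effectors, 22 were higher with Sall1 and 24 without, and of 16 GTPases 16 and 15. Of 18 MHC class I genes, 5 were higher with Sall1 and 11 without, and of 7 chemokines 3 and 5. Whether these counts differ was not tested. Isg15 rose by 3.34 (SE 0.37) with Sall1 and by 4.11 (SE 0.38) without it. Usp18 rose by 3.41 and 4.04. Cxcl10 stood at 1132, 1232, 1587 and 460 CPM in members with Sall1 and at 662, 302, 1272 and 196 in members without it. The other cells stood at 189, 240, 151 and 210 with Sall1 and at 60.0, 43.4, 43.2 and 71.6 without. Cxcl10 was thus higher with Sall1 among members and among other cells in every library, and its rise was 2.40 (SE 0.47) with and 3.33 (SE 0.50) without. The difference of the 2 rises, -0.93 (SE 0.63), did not pass (adjusted p = 1). It was -0.54 without Ms4a3 cKO 1 and -0.13 without cells of other markers, where the rise without Sall1 was 2.54.

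No gene passed the test of the difference between the 2 rises (0%, edgeR, with 340 at an unadjusted p under 0.05, 2.41% of 14120, and 0 by DESeq2). On simulated counts of this comparison the fit recovered 23% of changes of 1 and 90% of changes of 2 on the log2 scale. The simulated spread was the same for every gene, so recovery in the real data can be lower. The smallest p-values were those of Prg4, Gas1, Magi2, Cbll1 and Spink2, and none of them passed. Prg4, a lubricating glycoprotein, stood at 51.6 CPM in members with Sall1 of Flox control 2 and at 0 to 0.324 in those of the other libraries, so that its difference of 4.75 (SE 0.84, adjusted p = 0.899) came from 1 library. Slfn4, a myeloid Schlafen gene picked after its values were seen, stood at 6.42, 1.27, 179 and 1.94 in members with Sall1 and at 121, 129, 934 and 24.9 in those without. Its rise over the matching other cells was 3.29 (SE 0.78, adjusted p = 0.0536) with Sall1 and 3.03 (SE 0.58, adjusted p = 0.010) without. The value with Sall1 was 1.52 without Ms4a3 cKO 1 and 1.57 without cells of other markers.

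**Figure D5:**
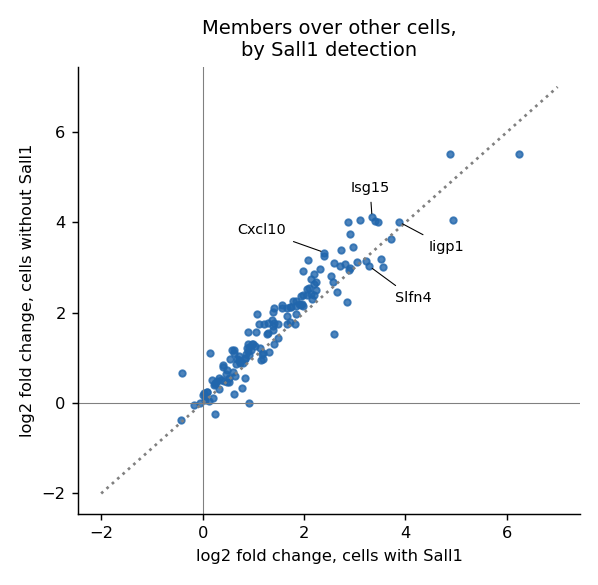
Log2 fold change of members over other cells among cells with Sall1 (horizontal) and without Sall1 (vertical) for 145 genes of 10 interferon-linked lists; the dotted line marks equal change. Of these, 139 lie above 0 on both axes, and Isg15 lies at 3.34 and 4.11. Of all 14120 genes tested, 6394 lie above 0 with Sall1 and 6137 without it. Members on both axes were chosen by the same rule genes, and the lists overlap with what that rule selects. The shared direction is therefore no independent agreement between cells with and without Sall1.

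Sall1 itself was detected in 63.9%, 47.8%, 24.5% and 65.1% of members and in 47.0%, 37.2%, 41.7% and 51.2% of the other cells. It was more frequent in members of 3 libraries and less frequent in those of Ms4a3 cKO 1, with a mean difference of 6.04 percentage points (SE 7.85, two-sided exact sign-flip permutation p = 0.625, n = 4 libraries, smallest p possible 1 in 8). Thinning to 2000 UMIs turned it to -0.80, with 53.0%, 25.9%, 11.0% and 41.9% in members against 41.8%, 29.3%, 29.2% and 34.8%, and without Ms4a3 cKO 1 it was 13.8. A cell without a Sall1 UMI need not be a macrophage: of members without Sall1, 22.2%, 26.8%, 26.1% and 6.86% also lacked Tmem119 and P2ry12 and had at least 2 of 7 monocyte-macrophage genes.

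The genotypes could not be separated within interferon-responsive cells. edgeR called 0 of 11162 genes between Ms4a3 cKO and Flox control members (0%), with 584 at an unadjusted p under 0.05 (5.23%), and DESeq2 called 53. With no filter on low counts 509 passed, and without Ms4a3 cKO 2 there were 66, all higher in the knockout. Leaving out 1 library leaves 1 in that genotype, which the fit assumes to vary like the other group. The median log2 difference was 0.07 for antiviral effectors, 0.11 for the interferon transcription factors, -0.36 for the GTPases and -0.64 for the chemokines, against -0.01 for all genes, and no gene of these lists passed. Without Ms4a3 cKO 1 these medians were -0.77, -0.40, -1.13 and -1.45. Isg15 differed by 0.19 on the log2 scale (SE 0.82), with the 2 knockout libraries at opposite ends for Isg15 (90.8 and 14.6). In the self-test of this fit on simulated counts, 46% of changes of 1 and 97% of changes of 2 on the log2 scale were recovered. The simulated counts had the same spread for every gene and the same base composition in every library. Recovery in the real libraries, which differ more, can be lower.

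The 5 genes with the smallest p between genotypes were Ddit4, Apod, Pik3ip1, Fkbp5 and Ccl8. Ddit4, a stress-induced brake on growth signalling, stood at 6.72 and 8.77 CPM in Flox control members and at 51.4 and 56.7 in Ms4a3 cKO members (log2 2.75, SE 0.23, adjusted p = 0.485). Fkbp5, a target of the glucocorticoid receptor, stood at 156 and 175 against 675 and 605 (log2 1.89, SE 0.22, adjusted p = 0.560). Ccl8, an interferon-inducible chemokine, stood at 102 and 77.3 against 17.1 and 16.8 (log2 -2.49, SE 0.29, adjusted p = 0.560). Apod and Pik3ip1 gave 3.02 and 2.61. None of the 5 passed the adjusted test. The 10 glucocorticoid receptor targets had a median of 1.79, with 8 of 10 above 0 and 0 of 10 passing.

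The genotype difference was also compared between members and the other Csf1r-positive cells of the same libraries. No gene of 15676 passed (0%, edgeR), with 585 at an unadjusted p under 0.05 (3.73%), and 1 passed with DESeq2. Leaving out 1 library gave 838 calls without Ms4a3 cKO 2, 47 without Ms4a3 cKO 1, 2 without Flox control 1 and 0 without Flox control 2, again with 1 library left in that genotype. The smallest p-values were those of Rgs5, Denn2b, Ptgds, Rgs4 and Il7r. Il7r, a cytokine receptor chain, gave 1.44 (SE 0.27, adjusted p = 0.939), and the pericyte genes Rgs5 and Rgs4 gave -2.91 and -2.10 but 2.04 and 8.11 after thinning. Fkbp5 stood at 144, 182, 729 and 660 CPM in the other cells, beside the 156, 175, 675 and 605 of members, and its difference was -0.06 (SE 0.13, adjusted p = 0.982). For Ddit4 and Ccl8 the difference was -0.03 and -0.71 (SE 0.22 and 0.28), and neither passed. Htr2b gave 0.61 (SE 0.19, adjusted p = 0.939).

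Cells outside the Csf1r-positive set also carried the 5 genes. Oligodendrocytes with a Mog UMI and no Csf1r met the threshold of 3 genes in 6.58%, 1.02%, 2.22% and 0.442% of cells, and in 1.08%, 0.299%, 0.414% and 0.0801% after thinning to 2000 UMIs, at median depths of 7875.5, 5910, 3866.5 and 3936 UMIs before it. The shares of Csf1r-positive cells after the same thinning, with types set before it, were 5.66%, 2.30%, 3.14% and 1.32%. Each was above that of the Mog cells of its library, but not above that of every cell type. Endothelial cells with Cldn5 and no Csf1r met the threshold after thinning in 1 of 20, 9 of 249 (3.61%), 2 of 383 (0.522%) and 14 of 367 (3.81%), above the Csf1r-positive cells in Flox control 2 and Ms4a3 cKO 2. T cells with a Cd3e UMI met the threshold in 75 of 405 cells of Flox control 1 (18.5%, 95% Wilson interval 15.04 to 22.6) and in 44 of 301 after thinning (14.6%), above the Csf1r-positive cells of that library. The other libraries held 29 to 43 such cells, too few for a comparison.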

How the data were processed

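Single-cell libraries were made on the BD Rhapsody platform from 4 samples. The authors deposited gene by barcode matrices of raw UMI counts, with 31253 genes each, and the submitters' processing notes name fastp 0.24.0, STARsolo and the build mm10. Neither the handling of multi-mapped reads nor a cell filter is given in the sources used here. Kept cells had at least 500 UMIs, 250 genes and under 20% mitochondrial counts (60942 of 63181 barcodes). Doublets were marked with Scrublet through scanpy 1.11.5 at an expected 6% and stayed in. Thinned values draw 2000 UMIs per cell.

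Members and gene lists were chosen with earlier results of these data known, and the lists overlap with what the members' rule selects. Counts were summed per library and class and tested with edgeR 4.0.16 (TMM, filterByExpr, quasi-likelihood F test, Benjamini-Hochberg adjustment over all genes, threshold 0.05) in R 4.3.3, with the library as a block wherever members were set against other cells; DESeq2 1.42.0 was an alternative. The 5 rule genes, Csf1r and the 4 excluding genes were described without a test, but they stayed in the fits and were not taken out of the counts of calls. Levels are counts per 1000000 summed UMIs of the class (CPM). Named genes were up to 15 per direction with the largest change past the threshold at a mean of at least 20 CPM in the higher class and the same sign in 4 of 4 libraries (without Gm and Rik symbols, mitochondrial and sex-linked genes), the interferon receptors, the 4 most abundant of each list, and the 5 with the smallest p of each comparison with few calls; others are said to be picked. On simulated counts the comparison of members with other cells recovered 91% of changes of 1 and 100% of changes of 2 (log2, 14747 genes). All simulations used a single spread for every gene and changed only genes with a mean of at least 50 UMIs. They do not give the recovery in the real data. Other cell filters, thresholds, scalings, depth windows and each library left out were run. Promoter sequences are from RefSeq. Some results are not reported here.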

Additional observations from a re-analysis of the deposited data

Results flagged for a closer look

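Cells outside the Csf1r-positive set that had a UMI of each of the neutrophil genes S100a8, S100a9 and Retnlg carried at least 3 of the 5 rule genes in 116 of 770 cells of Ms4a3 cKO 1 (15.1%, 95% Wilson interval 12.7 to 17.8). This stood out because these cells enter no comparison of the report and the share was above that of both control libraries, with 1 of 54 cells (1.85%) in Flox control 1 and 1 of 35 (2.86%) in Flox control 2. Ms4a3 cKO 2 had 2 of 96 (2.08%). After thinning to 2000 UMIs the share was 78 of 478 cells (16.3%) in Ms4a3 cKO 1 and 0 in the rest, of 25 cells in Flox control 1, 10 in Flox control 2 and 45 in Ms4a3 cKO 2. The value rests on 1 library, and the difference between genotypes was not tested.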

How the results depend on the processing

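For members against other cells, the 283 calls became 534 with DESeq2 and 0 to 562 with 1 library left out. With Sall1 there were 133 calls when 2 of 5 genes sufficed and 57 to 211 with 1 library left out; without Sall1 there were 192 among stricter macrophage-like cells and 143 to 283. The test of the difference by Sall1 gave 1 call with no filter on low counts and 0 in the others run. Genotype within members gave 53 calls with DESeq2, 509 with no filter on low counts and 0 to 66 with 1 library left out, where a lone library is assumed to vary like the other genotype. The difference of the genotype effect gave 1 with DESeq2, 103 with no filter, 19 after thinning and 0 to 838. The genotype ratio of shares ranged from -1.48 to -0.04, and the Sall1 difference from 2.43 to 13.8 with 1 library left out and -0.80 after thinning. Signs turned for Htr2b (0.0017 with DESeq2, 0.0017 with a mean of 50 UMIs, 0.095 with 2 of 5 genes, 0.17 without Flox control 1, 0.015 without Flox control 2, and a range of -0.13 to 0.17 with 1 library left out) and Ifnar1 (-0.014 with 2 of 5 genes, -0.084 without cells of other markers, -0.034 without Ms4a3 cKO 1, and a range of -0.034 to 0.15 with 1 library left out). Comparison cells without the 4 excluded genes turned H2-Aa to 0.13, H2-Ab1 to 0.25, Cd74 to 0.17 and H2-Eb1 to 0.26. Leaving out cells of other markers turned Septin4 to 0.038 and Mag to 0.058, and thinning turned the genotype differences of Rgs5 to 2.04 and Rgs4 to 8.11. The cause of these changes was not tested. The replicate number as a replicate block gave 0 genotype calls within members (367 at an unadjusted p under 0.05); same-numbered libraries correlated at -0.102, and a crossed pairing, added after seeing the data, also gave 0 (780). Of the single-gene values under alternatives, 1588 kept direction and call, 167 lost and 108 gained the call and 16 turned. The 2 libraries per genotype and the 375 members of the smallest library limit what could be detected.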

Other observations

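Within members, several groups outside the interferon response differed in median between genotypes with 0 calls by edgeR in each. The 14 genes of infiltrating monocytes and macrophages had a median log2 difference (Ms4a3 cKO against Flox control) of 1.42, with 12 of 14 above 0. The 16 disease-associated microglia genes had a median of -0.87 with 0 of 16 above 0, the 6 measured MHC class II genes one of -3.10 with 0 of 6 above 0, and the 16 homeostatic genes one of -0.63 with 2 of 16 above 0. Over all 11162 genes the median was -0.01. The members of Ms4a3 cKO 1 held 3926 CPM of neutrophil markers and the lowest Sall1 share, and the medians moved when that library was left out. Without it they were -0.88 for the infiltrating list, which changed sign, -0.67 for the disease-associated list, -4.54 for MHC class II and -0.21 for the homeostatic list. Without cells of other markers the infiltrating list stood at 0.06. The genotype difference of members was also set against that of the other Csf1r-positive cells. There the list medians were 0.72 (infiltrating), 0.25 (disease-associated), -0.15 (MHC class II) and -0.37 (homeostatic), with 0 calls in each. The genotype differences within members are thus not shown to be particular to these cells.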
